A study of Mus musculus with 14 samples.

Results

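The nuclear genes of mitochondrial complex I, with those of its assembly factors, were followed with age in mice, in neuronal nuclei of the medial entorhinal cortex. The genes were taken by name from the deposited table: every symbol that starts with Nduf, goes on with a, b, c, s, v or af and ends in a number was kept, and pseudogenes were left out. This gave 44 of 27781 gene rows; the rule reads names, not values, although the family was picked with earlier results of these data known. By role they comprised 7 core subunits, 9 accessory subunits of the N and Q modules, 9 of the proximal membrane arm, 10 of the distal membrane arm, 7 assembly factors and 2 genes that carry the name but are a former or a related member, Ndufa4 and Ndufa4l2. Of the 48 listed genes of these roles, Ndufb1, Ndufb4b, Ndufb4c and Ndufaf8 are not analysed here.

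The young group held 7 SmartSeq RNA libraries and the aged group held 7. Both groups are mice, and the labels give the same tissue, medial entorhinal cortex, and the same cell type, neuronal nuclei, for every library; they enter young or aged as the genotype and give no strain, allele, agent, sex or age in months. Libraries carry the numbers of their titles (young 2, 3, 11, 16, 17, 18 and 19; aged 3, 4, 5, 6, 7, 12 and 13). The expression data accompany electrophysiology of the same cortical area, and the question addressed here is whether complex I transcripts differ with age.

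Complex I is the NADH dehydrogenase of the inner mitochondrial membrane and the main entry point of electrons into the respiratory chain. Its N module oxidises NADH, its Q module passes the electrons to ubiquinone, and its membrane arm pumps protons; the membrane arm contains the subunits encoded by mitochondrial DNA, while all others are made from nuclear genes, imported and put together with the help of assembly factors that are not part of the finished enzyme. Neurons depend on this chain for most of the ATP that ion pumping and synaptic transmission consume.

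The values are the authors' deposited normalized values, which are not whole numbers, so depth is unknown and no counting interval can be given. A library held between 21152 and 25615 genes above 0. The libraries formed a pair of sets by Xist, the RNA that coats the inactive X chromosome of female cells: young 2 and 3 and aged 3 to 7 were Xist-positive (7378 to 25459), and the other 7 libraries, 5 young and 2 aged, were Xist-negative (0 to 5.13). Genes above 0 numbered 21152 to 22812 in the Xist-positive libraries and 25263 to 25615 in the Xist-negative ones. The nuclear RNA Malat1 lay at 11412 to 21489 in the Xist-positive libraries and at 55442 to 167698 in the Xist-negative ones, so the sets differ in more than Xist, and sex, preparation and any other property that follows them cannot be told apart. Most Xist-positive libraries are aged and most Xist-negative ones young, so age differences are given from age alone and again with the library set in the model. Nothing in the labels ties each library to its own animal, so a p-value covers the spread among these libraries, which may be technical. The 8 neuron markers were above 0 in every library, as were all markers of the other cell types listed, except that the pericyte marker Kcnj8 and the erythrocyte marker Hbb-bt were at 0 in some libraries.

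The 44 genes are spread over 16 chromosomes in GENCODE M21 (mm10), with 2, Ndufa1 and Ndufb11, on X. All of them passed the filter on low values (1 or more in at least 7 libraries). Divided by annotated exon length, the mean normalized value over the 14 libraries ran from 111 per kilobase for Ndufb7 to 1420 per kilobase for Ndufv2, a core iron-sulfur subunit of the N module, with Ndufa4l2 alone far lower at 6.75 per kilobase. This length joins the exons of all annotated transcripts and covers 4522 of the 4956 bases of Ndufb7. Undivided, the mean of Ndufb7 was 500, above that of Ndufs8 at 243, so its place depends on the divisor. Ndufa8, a subunit on the outer side of the membrane arm, and Ndufb9 followed Ndufv2 at 1400 and 1353 per kilobase. A gene's highest library exceeded its lowest by a median factor of 5.49. This ratio was smallest for Ndufv1, the subunit that binds NADH, at 1.82, and largest for Ndufa4l2 at 16.25 and Ndufa9 at 15.6.

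**Figure D1:**
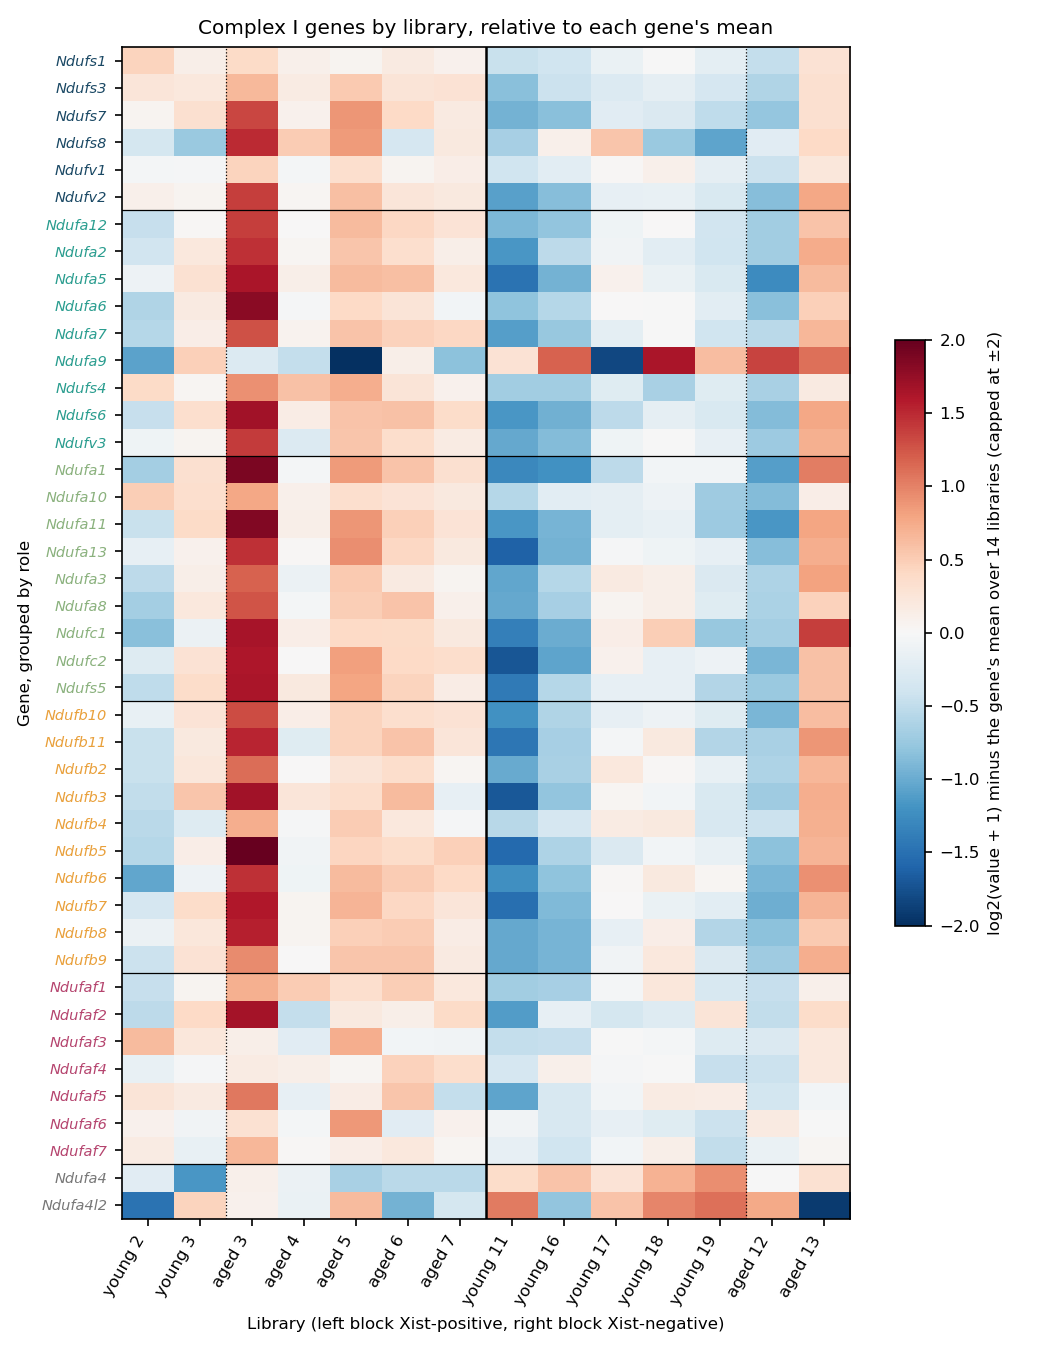
Heat map of log2(value + 1) minus each gene's mean over the 14 libraries, for 43 of the 44 genes (rows, grouped by role) and the libraries (columns, Xist-positive left of the thick line, Xist-negative right of it, young left of each dotted line); colours are capped at 2 in either direction. Aged library 3 is above the mean in 42 of the genes drawn and young library 11 in 3. Over all 14 libraries the rows of Ndufa9, Ndufa4 and Ndufa4l2 correlate negatively with the mean of the remaining genes.

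Most of the genes were high, or low, in the same libraries. Each gene's Spearman correlation with the mean of the remaining complex I genes had a median of 0.932 over the 14 libraries, and it was 0.8 or more for 31 genes (70.5%); among 16193 other genes with a mean of 100 or more, 5.81% correlated that closely with the complex I profile. The median correlation was 0.929 within the Xist-positive libraries and 0.929 within the Xist-negative ones. These coefficients describe libraries that share a normalization and a set structure. Over the 14 libraries the gene with the most different course was Ndufa4, now assigned to complex IV rather than complex I, at -0.49. Its paralogue Ndufa4l2 followed at -0.45 and Ndufa9 at -0.38. Within the Xist-positive and Xist-negative libraries the correlation was 0.04 and 0.14 for Ndufa4, and 0.50 and -0.43 for Ndufa4l2. The assembly factors were also looser, with Ndufaf6 at 0.41 and Ndufaf5 at 0.50, and the core subunit Ndufs8 stood at 0.51.

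Among genes outside the family, Chchd2, Acp1, Rps9 and Cox4i1 had the course most like that of complex I (Spearman correlation 0.991 each over 14 libraries, the highest of 16193 genes), and Gapdh came next at 0.987 with Rpl8, Akr1a1, Ccdc124 and Pmm1 at the same value. Chchd2 encodes a mitochondrial protein, Cox4i1 a subunit of complex IV, Rps9 and Rpl8 ribosomal proteins, and Gapdh a glycolytic enzyme. The age difference was 0.78 on the log2 scale for Cox4i1 with age alone and 0.47 once the set was added, and 0.69 and 0.47 for Rps9.

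Promoters are shown for Ndufs6, Ndufb4 and Ndufa9, which carry motif letters of factors known to act on respiratory genes. That of Ndufa4, which carries none, is shown as well. Over all libraries Ndufa4, like Ndufa9 and Ndufa4l2, correlates negatively with the remaining complex I genes. Promoter windows from RefSeq (build GRCm38.p6), 250 bases before to 50 bases after the start, were available for 38 of the 44 genes; those of the remaining genes, Ndufa2, Ndufa4l2, Ndufaf6, Ndufb9 and Ndufs1 among them, are not used here. Both strands were searched for the motif of NRF1 (nuclear respiratory factor 1; GCGC and TGCGC with any base between them), CCGGAAGT (GABPA, the factor also called nuclear respiratory factor 2) and ATGGCGGC (YY1), and capitals mark their matches, none of which overlap in the windows printed. Ndufs6 is at chr13:73328433-73328732 on the minus strand, Ndufb4 at chr16:37654319-37654618 on the minus strand, Ndufa9 at chr6:126849095-126849394 on the minus strand and Ndufa4 at chr6:11907401-11907700 on the minus strand, each printed along the gene's own strand.
Ndufs6: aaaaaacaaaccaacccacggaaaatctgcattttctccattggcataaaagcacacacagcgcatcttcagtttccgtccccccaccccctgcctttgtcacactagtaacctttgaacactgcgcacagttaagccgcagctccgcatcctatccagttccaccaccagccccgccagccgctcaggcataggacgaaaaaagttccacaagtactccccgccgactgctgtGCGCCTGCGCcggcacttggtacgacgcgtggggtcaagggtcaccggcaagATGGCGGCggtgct
Ndufb4: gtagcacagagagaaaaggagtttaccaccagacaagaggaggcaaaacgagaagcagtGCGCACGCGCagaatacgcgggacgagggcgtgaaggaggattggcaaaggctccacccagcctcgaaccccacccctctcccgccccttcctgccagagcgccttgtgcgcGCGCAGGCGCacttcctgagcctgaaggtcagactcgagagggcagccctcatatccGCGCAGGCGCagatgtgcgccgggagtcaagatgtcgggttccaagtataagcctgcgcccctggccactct
Ndufa9: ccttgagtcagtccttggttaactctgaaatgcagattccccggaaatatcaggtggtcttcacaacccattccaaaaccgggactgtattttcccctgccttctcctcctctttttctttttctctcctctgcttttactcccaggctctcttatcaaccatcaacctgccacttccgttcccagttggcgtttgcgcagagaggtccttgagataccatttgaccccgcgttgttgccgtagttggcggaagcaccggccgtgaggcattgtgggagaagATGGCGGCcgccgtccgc
Ndufa4: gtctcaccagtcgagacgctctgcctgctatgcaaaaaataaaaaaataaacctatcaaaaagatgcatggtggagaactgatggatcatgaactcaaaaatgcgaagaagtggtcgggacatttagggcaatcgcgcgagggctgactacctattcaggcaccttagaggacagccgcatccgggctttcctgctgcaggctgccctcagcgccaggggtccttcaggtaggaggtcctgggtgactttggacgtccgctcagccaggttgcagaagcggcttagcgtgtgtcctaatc
Matches may lie on either strand. In Ndufs6 an NRF1 match begins at base -16 and a YY1 match at base 37 from the start. Ndufb4 holds 3 NRF1 matches, at -191, -79 and -22. Ndufa9 holds a YY1 match at 33, and Ndufa4 holds none of the 3 motifs.

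NRF1 letters were found in 9 of the 38 complex I windows (23.7%) and in 4.78% of all 27025 windows of the same length. The 9 genes were Ndufa5, Ndufa6, Ndufa8, Ndufa11, Ndufaf4, Ndufaf5, Ndufb4, Ndufs5 and Ndufs6. YY1 letters, which can also be a start codon with the bases that follow it, were found in 6 windows (15.8%; all windows 2.38%), those of Ndufa7, Ndufa9, Ndufb5, Ndufs4, Ndufs6 and Ndufs7. GABPA letters were found in Ndufs3 alone (2.63%; all windows 4%). TATAAA was present in 10.5% of the complex I windows and in 14.2% of all windows, and CCAAT in 34.2% and 37.9%. The median GC content was 59.2% against 52.7% for all windows. Letters of NRF1, GABPA or YY1 were found in 15 of the 38 windows, so most complex I windows carried none. Ndufb10 and Ndufa13, which correlated at 0.991 with the remaining complex I genes, carried none. Ndufa11, at the same value, carried NRF1 letters. A match describes letters and does not show binding, and a link between these letters and the common course was not tested.

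No complex I gene passed the adjusted threshold for age. The log2 difference, aged minus young, was positive for 41 of the 44 genes with age alone (37.2% of all genes tested) and its median was 0.63, where the median of all 24554 genes tested was -0.25. With the library set in the model 40 were positive (37.5% of all genes) and the median was 0.43, against -0.16 for all genes. Upper-quartile scaling moved the median of all genes to -0.45 with age alone, and 38 of the complex I genes were then positive with a median of 0.43. Equal totals with the library set gave a median of -0.04 for all genes, with 11552 positive, and of 0.57 for complex I, with 43 positive. In limma with Benjamini-Hochberg adjustment over all genes, 0 complex I genes were called with age alone (0.00407% of all genes were) and 0 with the library set (0.00815%), the smallest adjusted p being 0.182 and 0.329. At an unadjusted p under 0.05, 26 of the 44 were higher in aged libraries with age alone (6.5% of all genes), and 3 with the library set (4.03%). The former count was 8 with upper-quartile scaling (2.91% of all genes), and the latter was 10 with equal totals (6.98%). In no gene did every aged library lie above every young one, a pattern seen in 0.138% of all genes. In bulk nuclei, fewer nuclei of a type and less RNA per nucleus cannot be told apart.

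**Figure D2:**
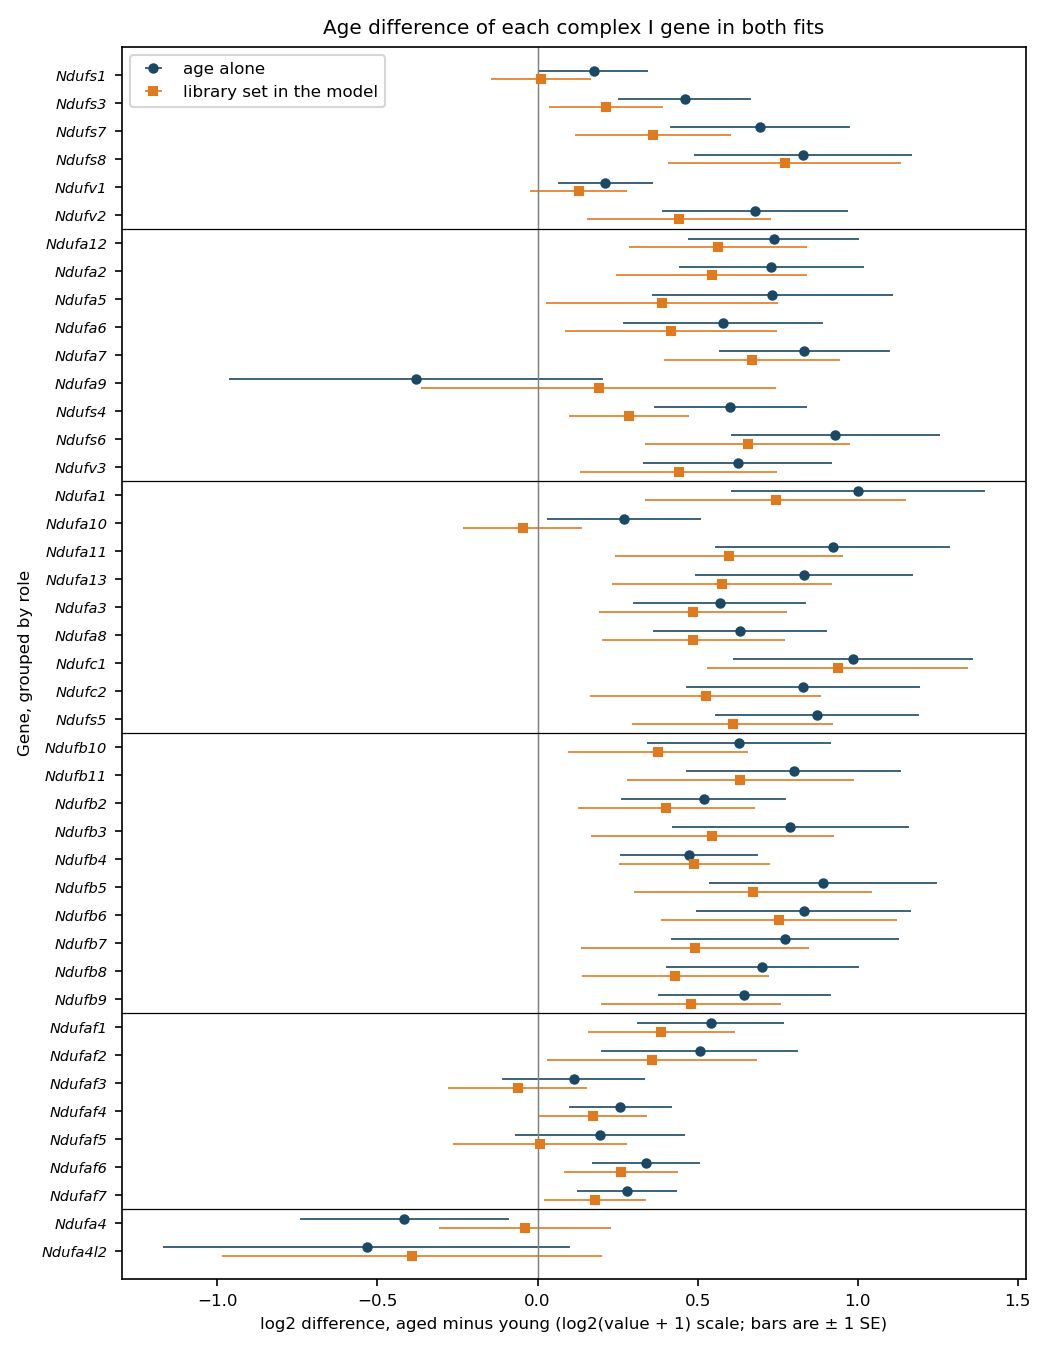
Age difference of 43 of the 44 genes, on the log2(value + 1) scale as aged minus young, with bars of 1 SE; circles are from age alone and squares from the model with the library set. With age alone 40 genes lie to the right of 0, and no gene in either fit passed an adjusted p of 0.05.

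The core subunits, which hold the redox centres, had a median difference of 0.46 with age alone and 0.21 with the library set, and 7 of 7 were positive in both fits. Ndufs7, an iron-sulfur subunit of the Q module, ran from 796 through a median of 1263 to 1917 in young libraries and from 902 through 1916 to 3864 in aged libraries. Its means were 1262 ± 400.1 and 2133 ± 956 (SD, n = 7 each), and the limma difference was 0.69 ± 0.28 (SE; adjusted p = 0.187) with age alone and 0.36 ± 0.24 (adjusted p = 0.520) with the set. The groups overlapped: aged 12 was the lowest aged library, and aged 3 lay above all others. Ndufs8, the other iron-sulfur subunit of that module, ran from 103 through 135 to 317 in young libraries and from 169.5 through 285 to 608 in aged ones, a difference of 0.83 ± 0.34 (SE; limma adjusted p = 0.187) and 0.77 ± 0.36 (adjusted p = 0.381) with the set. Its low values were young and its highest was aged, but the ranges shared the span from 169.5 to 317. Ndufs3, a structural subunit of the Q module, ran from 793 through 1179 to 1685 in young and from 937 through 1740 to 2230 in aged libraries, with a difference of 0.46 ± 0.21 (SE; limma adjusted p = 0.198) and 0.21 ± 0.18 with the set. Ndufs1, the largest iron-sulfur subunit of the N module, had the largest p of the core: it ran from 2065 through 2546 to 3843 in young and from 2024 through 3004 to 3666 in aged libraries, and its difference was 0.17 ± 0.17 (SE; limma adjusted p = 0.501) and 0.01 ± 0.16 with the set. Both ranges of Ndufs1 cover nearly the same span.

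The accessory subunits of the N and Q modules had a median difference of 0.73 with age alone and 0.44 with the set. Ndufa7 (chr17:33824572-33838317), a small subunit of the Q module, had the smallest p of all 44 genes. It ran from 259 through 424 to 610.3 in young libraries and from 383 through 771 to 1354 in aged libraries. The means were 435 ± 126 and 794 ± 299 (SD, n = 7 each), and the limma difference was 0.83 ± 0.27 (SE; adjusted p = 0.182), or 0.67 ± 0.27 (adjusted p = 0.329) with the set. Of the 7 aged libraries, only aged 12 at 383 and aged 4 at 588 lay below the highest young library. Ndufs6 (chr13:73319838-73328542), a zinc-binding subunit of the N module, ran from 225 through 365 to 636 in young and from 276 through 752 to 1608 in aged libraries. Its difference was 0.93 ± 0.33 (SE; limma adjusted p = 0.182) and 0.66 ± 0.32 (adjusted p = 0.397) with the set. Aged 12 at 276 and aged 4 at 560.0 were the aged libraries that fell inside the young range. Ndufs4, whose loss gives a Leigh-like encephalopathy in mice, ran from 1588 through 2182 to 3367 in young and from 1647 through 3105 to 4845 in aged libraries, a difference of 0.60 ± 0.24 (SE; limma adjusted p = 0.185), or 0.29 ± 0.19 (adjusted p = 0.510) with the set.

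Ndufa9 (chr6:126821721-126849136), which holds the junction between the matrix and membrane arms, was the member of this group with a negative difference. It was 268, 789, 691, 1286, 159, 1753 and 867 in young libraries 2, 3, 11, 16, 17, 18 and 19. In aged libraries 3, 4, 5, 6, 7, 12 and 13 it was 464, 404, 113, 615, 318, 1440 and 1213. Young and aged libraries each covered most of the whole range. Xist-positive libraries ran from 113 to 789 with a mean of 425, and Xist-negative ones from 159 to 1753 with a mean of 1058. The limma difference was -0.38 ± 0.58 (SE; adjusted p = 0.691) with age alone and 0.19 ± 0.55 (adjusted p = 0.903) with the set. It was -0.46 within the Xist-positive libraries and 0.84 within the Xist-negative ones.

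**Figure D3:**
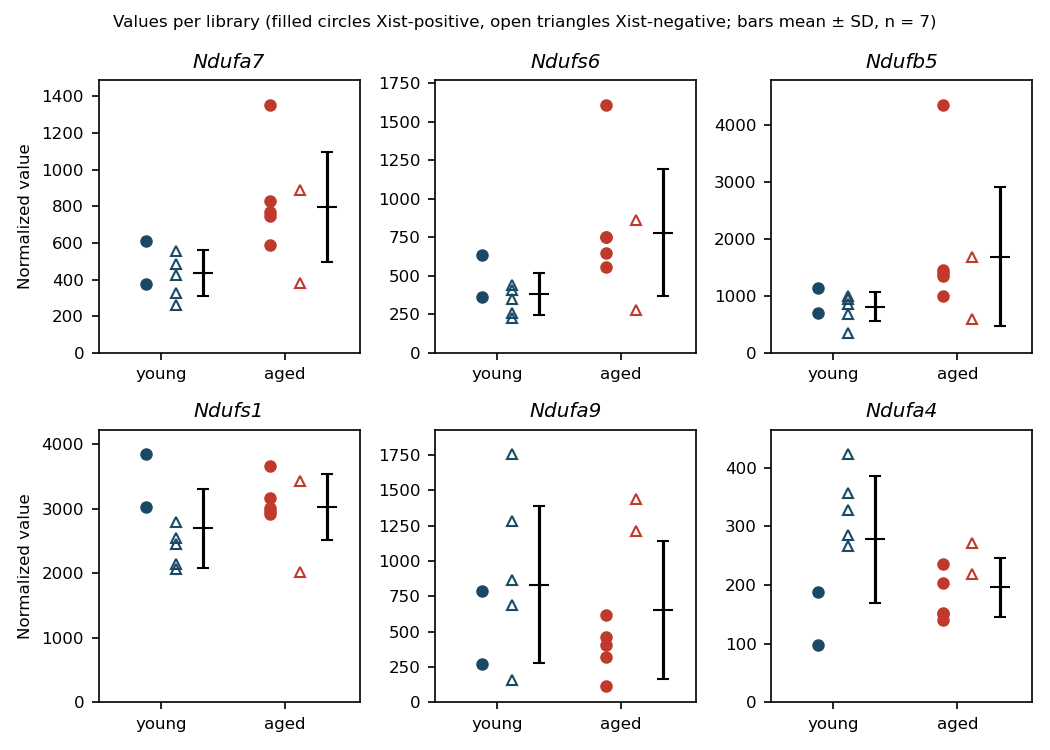
Normalized value in each library for Ndufa7, Ndufs6, Ndufb5, Ndufs1, Ndufa9 and Ndufa4, young beside aged, with the mean and SD of the 7 libraries of each group; filled circles are Xist-positive and open triangles Xist-negative libraries. Ndufb5 reaches 4354 in aged library 3, and Ndufa4 stays between 219 and 423 in the Xist-negative libraries.

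Accessory subunits of the membrane arm had the highest medians of the role groups, a difference between groups that was not tested: a median of 0.83 with age alone and 0.58 with the set for the proximal part, and 0.74 and 0.49 for the distal part. The accessory N and Q group stood close to the distal part, at 0.73 and 0.44. Unadjusted p was under 0.05 with age alone in 7 of 9 proximal and 9 of 10 distal genes, and with the set in 1 and 0. With age alone it was under 0.05 in 5 of 9 accessory N and Q genes and 4 of 7 core genes. With the set it was so in 1 of each, and all of these were higher. Of all genes, 6.5% were higher at that p with age alone and 4.03% with the set. Ndufc1 (chr3:51404677-51408988), a small subunit of the proximal arm, ran from 128 through 196 to 467 in young libraries and from 208 through 433 to 1038 in aged libraries. Its means were 259 ± 123 and 532 ± 301 (SD, n = 7 each), and its limma difference of 0.98 ± 0.37 (SE; adjusted p = 0.182) was, with the set, 0.94 ± 0.41 (adjusted p = 0.351). The groups overlapped from 208 to 467, and only aged 3 at 1038 and aged 13 at 866 lay above the highest young library. Ndufs5, an intermembrane-space subunit, ran from 318 through 599 to 1097 in young and from 507 through 1163 to 2629 in aged libraries, a difference of 0.87 ± 0.32 (SE; limma adjusted p = 0.182) and 0.61 ± 0.31 (adjusted p = 0.418) with the set. Ndufa10, a matrix-facing subunit related to nucleoside kinases, had the largest p of the proximal genes. It ran from 1843 through 2647 to 4227 in young and from 1641 through 3451 to 5143 in aged libraries, with a difference of 0.27 ± 0.24 (SE; limma adjusted p = 0.461) and -0.05 ± 0.19 with the set, a change of sign.

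In the distal arm, Ndufb5 (chr3:32736990-32751566) ran from 355 through 853 to 1143 in young libraries and from 594 through 1411 to 4354 in aged libraries. The limma difference was 0.89 ± 0.36 (SE; adjusted p = 0.185) with age alone and 0.67 ± 0.37 (adjusted p = 0.444) with the set, and the latter was 0.50 without aged library 3. Aged 3 stood at 4354, and the next aged library at 1686. Ndufb6 ran from 314 through 683 to 844 in young and from 387 through 1038 to 2022 in aged libraries, a difference of 0.83 ± 0.34 (SE; limma adjusted p = 0.187) and 0.75 ± 0.37 (adjusted p = 0.396) with the set. Ndufb2, the distal gene with the largest p, ran from 564 through 1021 to 1323 in young and from 737 through 1351 to 2476 in aged libraries, a difference of 0.52 ± 0.26 (SE; limma adjusted p = 0.221) and 0.40 ± 0.28 (adjusted p = 0.531). All 10 distal genes were positive in both fits, and in all 3 of the named ones the young and aged libraries overlapped.

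The assembly factors had a median difference of 0.28 with age alone and 0.18 with the set. Ndufaf1, which works in the complex that builds the membrane arm, ran from 235 through 306 to 446 in young and from 275 through 481 to 624 in aged libraries, a difference of 0.54 ± 0.23 (SE; limma adjusted p = 0.189) and 0.39 ± 0.23 (adjusted p = 0.472) with the set. It was the only one of the 7 with an unadjusted p under 0.05 with age alone (6.5% of all genes were higher at that p). Ndufaf6, needed early in assembly, ran from 806 through 969 to 1149 in young and from 927 through 1155 to 1986 in aged libraries, a difference of 0.34 ± 0.17 (SE; limma adjusted p = 0.221) and 0.26 ± 0.18 (adjusted p = 0.530) with the set. Ndufaf3, which with Ndufaf4 acts on the early Q module, had nearly the same median in both groups, 433 in young and 428 in aged libraries, and its difference was 0.11 ± 0.22 (SE; limma adjusted p = 0.761), or -0.06 ± 0.22 with the set.

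The genes that are no longer counted, or were never counted, as subunits had negative differences that did not pass the test. Ndufa4 (chr6:11900292-11907497) was 189, 98.4, 285, 327, 267, 357 and 423 in young libraries 2, 3, 11, 16, 17, 18 and 19, and 236, 204, 140.2, 152, 151, 219 and 272 in aged libraries 3, 4, 5, 6, 7, 12 and 13. The difference was -0.42 ± 0.33 (SE; limma adjusted p = 0.404) with age alone and -0.04 ± 0.27 (adjusted p = 0.961) with the set, and within the sets it had opposite signs, 0.34 in Xist-positive libraries against -0.42 in Xist-negative ones. Ndufa4l2, known as a target of hypoxia signalling, was near the bottom of the measured range, from 1.52 through 9.37 to 14.1 in young and from 0.868 through 5.41 to 10.9 in aged libraries, and its difference was -0.53 ± 0.64 (SE; limma adjusted p = 0.597), or -0.39 ± 0.59 (adjusted p = 0.796) with the set.

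Single libraries set much of the level of the whole family. Aged library 3 held the highest value of 37 of the 44 genes (14.1% of all genes tested were highest there), and young 11 or aged 12 held the lowest value of 37 (13.4% of all genes). Summed over the 44 genes, the normalized value was 100603 in aged 3, and from 30002 in aged 12 to 63102 in aged 5 among the other aged libraries; young libraries ran from 26000 in young 11 through 41539 to 50646 in young 3. Aged 13 and aged 12, the only aged Xist-negative libraries, differed by a median of 1.28 on the log2 scale, with 41 of 44 genes higher in aged 13; the median over all genes was -0.22. Without aged 3 the median age difference was 0.49 with age alone, with 6 genes at an unadjusted p under 0.05, and 0.33 with the set, with 37 positive and 1 at an unadjusted p under 0.05. Without aged 12, limma with age alone called 17 complex I genes, all higher (2.43% of all genes were called higher), and the median was 0.81; with the set in the model it called 0, with 29 at an unadjusted p under 0.05, and the median was 0.73. Without aged 13 the model with the set gave a median of 0.23, with 39 positive and 0 at an unadjusted p under 0.05. Of the 24554 genes tested, 892, 1380 and 743 were higher at that p with the set, without aged 3, aged 12 and aged 13. For age alone without aged 3 the count over all genes is not given here.

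**Figure D4:**
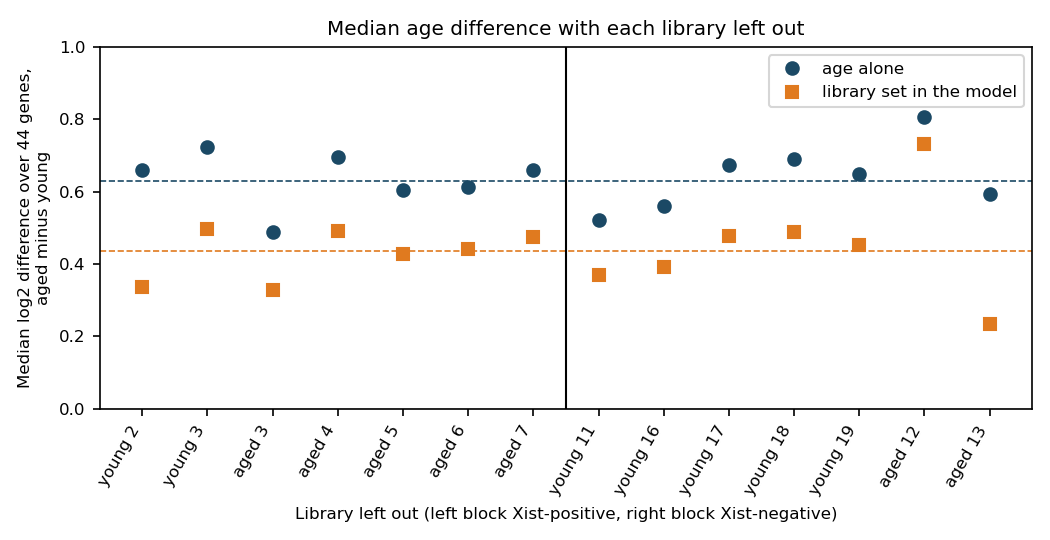
Median age difference over the 44 genes, on the log2(value + 1) scale as aged minus young, with each library left out in turn; circles are from age alone, squares from the model with the library set, and dashed lines mark the values with all 14 libraries. The median stays above 0 throughout, from 0.49 to 0.81 with age alone and from 0.23 to 0.73 with the set.

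The weight given to libraries also moved the calls. With limma's array weights and age alone, 30 complex I genes were called, 29 of them higher (14.8% of all genes were called higher), and Ndufa4 was called lower, as were 38.3% of all genes. The weights were lowest for young 2 (0.275), aged 12 (0.299), young 3 (0.382) and aged 13 (0.416), which are the libraries in the minority of their age group by set; array weights estimated with the set in the model gave 0 calls and 3 genes at an unadjusted p under 0.05. With the first principal component of the residuals as a term, which by construction is uncorrelated with age, 16 were called, all higher (5.75% of all genes).

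Within the Xist-positive libraries alone (2 young, 5 aged) the median difference was 0.52, with 40 genes positive, 0 called by limma and 3 at an unadjusted p under 0.05. Leaving out aged 3 there gave 0.32 and 38 positive. Within the Xist-negative libraries (5 young, 2 aged) the median was 0.34, with 41 positive, 0 called and 0 at an unadjusted p under 0.05. Of the 24554 genes tested, 714 were higher at that p in the Xist-positive libraries alone and 524 in the Xist-negative ones. Of the 44 genes, 38 were positive in both sets (21.6% of all genes). No difference between the sets in the age effect was detectable: the interaction term called 0 complex I genes (0% of all genes), with 0 at an unadjusted p under 0.05 and a smallest adjusted p of 0.9997.

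**Figure D5:**
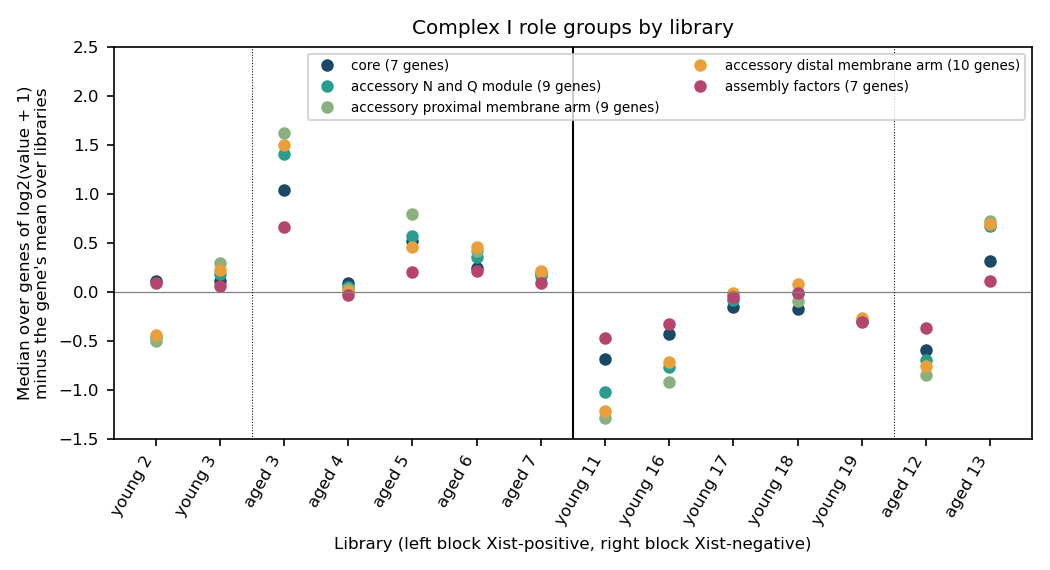
Median over the genes of each role group of log2(value + 1) minus the gene's mean over the 14 libraries, per library; the thick line separates Xist-positive from Xist-negative libraries, dotted lines separate young from aged, and Ndufa4 and Ndufa4l2 are not drawn. The proximal membrane arm ranges from -1.29 in young 11 to 1.62 in aged 3, the assembly factors from -0.47 to 0.66.

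With age in the model, 7 of the 44 complex I genes differed between the library sets at an adjusted p under 0.05 (limma). That share was below that of all 24554 genes tested, of which 3817 were called higher and 8959 lower. Higher in the Xist-positive set were 6 (15.5% of all genes were), among them Ndufa10, Ndufs1, Ndufs3, Ndufs4 and Ndufs7, and lower was 1, Ndufa4 (36.5% of all genes were). Ndufa10 ran from 3244 to 5143 in Xist-positive and from 1641 to 3293 in Xist-negative libraries (3903 ± 628 and 2408 ± 590.2, SD, n = 7 each; difference 0.74 ± 0.19, SE, limma adjusted p = 0.00327). Ndufs4 ran from 2658 to 4845 and from 1588 to 2914, a difference of 0.74 ± 0.19 (SE; limma adjusted p = 0.00353). Ndufs7 differed by 0.78 (limma adjusted p = 0.0135), Ndufs3 by 0.58 (limma adjusted p = 0.0123) and Ndufs1 by 0.38 (limma adjusted p = 0.0499). Ndufa4 ran from 98.4 to 236 in Xist-positive libraries and from 219 to 423 in Xist-negative ones, a difference of -0.88 ± 0.27 (SE; limma adjusted p = 0.0119). The median over the 44 genes was 0.41, and over all genes tested -0.30. The complex I median depended on the scaling. With libraries brought to equal totals 2 complex I genes were called and their median was 0.09. With upper-quartile scaling 2 were called and the median was -0.03.

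The other genes of the pathway were taken from listed genes of each role. The 7 mitochondrially encoded subunits of complex I were lower in the Xist-positive set in 7 of 7 (limma, adjusted p under 0.05), by a median of -2.26 on the log2 scale. Of all genes tested, 36.5% were called lower in that set. With age alone 0 of the 7 were positive, with a median of -0.98, and with the set 5 were positive, with a median of 0.13; limma called 0 in either fit, with 0 at an unadjusted p under 0.05. The smallest p with age alone were those of mt-Nd6 (-1.42 ± 0.70, SE, limma adjusted p = 0.216; -0.28 ± 0.35 with the set) and mt-Nd5 (-1.10 ± 0.71, limma adjusted p = 0.315; 0.07 ± 0.40 with the set). These transcripts are made in mitochondria, outside the nucleus. Of 14 other complex I assembly factors, 11 were tested and 9 were positive with age alone (median 0.16) and 6 with the set (0.11); the pair with the smallest p was Tmem126b, of the complex that builds the membrane arm (0.69 ± 0.23, SE, limma adjusted p = 0.182; 0.70 ± 0.25 with the set), and Tmem126a (0.71 ± 0.26; 0.45 ± 0.24 with the set). Ndufab1, the acyl carrier protein that is also a subunit, differed by 0.46 ± 0.20 (SE; limma adjusted p = 0.193) and by 0.49 ± 0.22 with the set.

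Of the complex II genes, which take electrons from succinate, 6 of 8 were tested and 5 were positive in both fits (medians 0.48 and 0.33), led by Sdhaf1 at 0.83 with age alone and 0.51 with the set and Sdhb at 0.54 and 0.36. Of 13 genes of coenzyme Q synthesis, 11 were tested, with 10 positive with age alone (median 0.16) and 7 with the set (0.09). Coq2, the enzyme that joins the ring to its tail, differed by 1.16 ± 0.36 (SE; limma adjusted p = 0.182) with age alone and 0.54 ± 0.17 (adjusted p = 0.253) with the set, and was 1.43 higher in the Xist-positive set; Coq7 differed by 0.71 with age alone and 0.48 with the set. The 13 nuclear regulators of mitochondrial genes had 8 positive with age alone (median 0.10) and 3 with the set (-0.13), among them Gabpa at -0.28 with age alone and -0.13 with the set and Tfam, the mitochondrial DNA packaging factor, at 0.31 and 0.35. No gene of these lists was called for age by limma; at an unadjusted p under 0.05 with age alone stood 3 other assembly factors, Ndufab1, 3 complex II genes, 2 coenzyme Q genes and 0 regulators, all of them higher, beside 6.5% of all genes. With the set there were 2 other assembly factors, Ndufab1, 0 complex II genes and 1 coenzyme Q gene, all higher (4.03% of all genes), and 1 regulator, Polrmt, which was lower.

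Oligodendrocyte markers were highest in aged 3, 13 and 5, which were also the highest for complex I, but did not follow it throughout. The summed level of 6 oligodendrocyte markers was highest in aged 3 (16500) and aged 13 (15816) and lowest in young 2 (3135) and young 11 (3148); it ran from 3135 to 9085 in young and from 4698 to 16500 in aged libraries. Aged 3, 13 and 5 ranked 1, 2 and 3 of 14 for these markers and 1, 3 and 2 for complex I, and young 11 ranked 13 and 14. Aged 12 ranked 5 for these markers and 13 for complex I, and aged 6 ranked 10 and 4. Their median age difference was 0.59 with age alone, 5 of 6 positive, and 1.13 with the set, 6 of 6 positive. Of 7 astrocyte markers 6 were positive in both fits (medians 0.22 and 0.66), and of 8 microglia markers 6 and 8 (0.21 and 0.65). In aged 3 the astrocyte sum of 15922 was below the aged median of 16989. Its microglia sum of 3983 was above the aged median of 3129 and the highest of the Xist-positive libraries. It was below the highest young library at 5035 and the highest aged library at 6607. Of 8 neuron markers 7 were positive with age alone and 6 with the set (medians 0.39 and 0.24). The summed level of the neuron markers ran from 109962 in aged 12 to 199249 in aged 6, and aged 3, highest for complex I, was the tenth at 135510. No marker of these lists was called by limma for age, and the part of glial RNA in the complex I levels was not tested.

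Complex I genes have a short annotated exon length: with the exons of all transcripts joined, its median was 1643.5 bases, against 3711 for 19371 protein-coding genes tested. Over the 44 genes the age difference and exon length had a Spearman correlation of -0.46 with age alone and -0.47 with the set; over all coding genes it was 0.16 and -0.03. Among the 3875 shortest coding genes, which include 27 of the complex I genes, the median difference of all genes was -1.13 with age alone and -0.17 with the set, and that of the 27 was 0.73 and 0.52. The values of 13 genes are less certain, because at least 10% of their annotated transcript sequence is shared with another gene and how shared reads were counted is not known. Among them are Ndufaf2 (65.1%), Ndufb6 (34.5%), Ndufs5 (26.5%), Ndufs3 (25.4%), Ndufs6 (15.1%) and Ndufb5 (11.9%).

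In the authors' deposited table, 0 of the 43 complex I genes with an adjusted p were under 0.05 (2.41% of all genes were), and 9 were higher in aged libraries at an unadjusted p under 0.05 (4.29% of all genes). In the authors' deposited table these were Ndufc1, Ndufa7, Ndufs6, Ndufb4, Ndufa1, Ndufb6, Ndufa12, Ndufa2 and Ndufa11, and the log2 fold change was positive for 40 of the 44 with a median of 0.53. The smallest adjusted p in the authors' deposited table was that of Ndufc1, 0.168, at a log2 fold change of 1.06, and Ndufa7 stood at 0.71 with an adjusted p of 0.177. Ndufa9 and Ndufa10 were at 0.01 and -0.01 in the authors' deposited table. Coq2, outside the family, had an adjusted p of 0.0490 at a log2 fold change of 0.56 in the authors' deposited table.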

How the data were processed

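SmartSeq RNA libraries of neuronal nuclei were grouped by the age label (7 young, 7 aged). Per the submitters' processing notes, STAR, kallisto, DESeq2 and mm10 were used; their versions and roles, the filters and the model terms are not stated in the labels. What the authors deposited is a normalized signal per gene and library, scaled by median of ratios as the values show, which is not whole and keeps no depth. The authors also deposited a log2 fold change with its error, a test score and a p-value and adjusted p-value, used only as theirs. A nameless row (0.043 to 0.221% of a library) was left out; 0 value columns were unmapped.

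limma 3.58.1 (R 4.3.3; eBayes with trend) was run on log2(value + 1), a pseudocount of 1, over the 24554 genes that reached 1 in at least 7 libraries, two-sided, Benjamini-Hochberg adjusted p under 0.05; fold changes of low genes are understated. The fit with the library set was tested on simulated data with independent errors per gene. The fits with age alone were not. Library sets were split at an Xist value of 1000. The members and lists were chosen with earlier results of these data known. Named members were, per role, the 2 with the smallest and the 1 with the largest p, those past 0.05 in any fit of the design, and those with a negative difference; of each pathway list, the 2 smallest p. A gene that enters the counts is not reported here by name. Coordinates and exon lengths come from GENCODE M21, promoters from RefSeq; shared sequence was counted in 31-base words. Alternatives covered scaling, filters, pseudocount, weights, covariates and leaving out each library. Other steps used Python 3.11.15 with matplotlib 3.10.9, pandas 2.3.3, scipy 1.17.1 and numpy 2.4.6.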

Additional observations from a re-analysis of the deposited data

Results flagged for a closer look

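Of 88 groups of 7 libraries (each gene in young and in aged), 4 held a library set apart from the other 6 on the log2 scale by more than Dixon's limit, where chance sets apart about 1 in 20. In aged library 12, Ndufa10 was 1641, with the others from 3244 to 5143. In the same library Ndufs1 was 2024, with the others from 2922 to 3666. Ndufs3 was 937 there, with the others from 1587 to 2230. In aged library 3, Ndufaf2 was 4155, with the others from 930.0 to 1712; most of the Ndufaf2 transcript sequence is shared with an overlapping gene.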

How the results depend on the processing

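With age alone, the count of complex I genes called was 30 with array weights, 16 with the first principal component of the residuals and 0 to 17 as each library was left out (17 without aged 12; 0 without each of the others). In these fits 53.1% (array weights), 34.2% (principal component) and 9.7% (without aged 12) of all genes tested were called. The count at an unadjusted p under 0.05 with age alone, 26 with all libraries, was 8 with upper-quartile scaling, 17 without the variance trend, 6 without aged 3, 9 without young 11, 12 without young 16, 12 without aged 5, 14 without aged 13, 16 without aged 6 and 35 without aged 12; with the set, 3 became 10 with equal totals and ranged from 0 (without young 2 or aged 13) to 29 (without aged 12). Higher at that p with age alone were 6.5% of all genes, and 2.91% with upper-quartile scaling. With the set they were 4.03%, 6.98% with equal totals, and 1380 and 743 of 24554 genes without aged 12 and aged 13. The shares for the other fits are not given here. In the model with the library set, the count of complex I genes called at an adjusted p under 0.05 was 0 under every alternative run. Between the sets the count was 2 with equal totals and 2 with upper-quartile scaling, where the median became -0.033. The median age difference kept its sign under every alternative run. Single genes near 0 changed sign. With age alone these were Ndufaf3 (-0.087) and Ndufs1 (-0.025) under upper-quartile scaling, which moves the median of all genes to -0.45. Ndufa10 (-0.047), Ndufa9 (0.19) and Ndufaf3 (-0.062) did so once the set was added. In the Xist-positive libraries alone they were Ndufa10 (-0.077), Ndufa4 (0.34), Ndufa4l2 (0.37), Ndufaf3 (-0.33) and Ndufs1 (-0.12), and in the Xist-negative ones Ndufa10 (-0.017) and Ndufa9 (0.84). In the Xist-positive libraries without aged 3, an alternative chosen after seeing the data, they were Ndufa10 (-0.19), Ndufa4 (0.23), Ndufa4l2 (0.31), Ndufaf3 (-0.33) and Ndufs1 (-0.18). With the set in the model, equal totals gave Ndufa10 0.086, Ndufa4 0.092 and Ndufaf3 0.071, upper-quartile scaling gave Ndufs1 -0.00051, and array weights gave Ndufaf3 0.024. Leaving out each library there gave ranges of -0.31 to 0.12 for Ndufa4, -0.22 to 0.082 for Ndufaf3, -0.16 to 0.12 for Ndufs1, -0.097 to 0.65 for Ndufa9, -0.24 to 0.13 for Ndufa10 and -0.95 to 0.30 for Ndufa4l2. The cause of these changes was not tested. No paired analysis was possible because young and aged libraries share only 1 number, 3. DESeq2, edgeR and their scalings need counts and were not run. Depth is unknown, so what depth limits cannot be stated.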
